A study of Mus musculus with 13 samples.

Results

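The genes described here are 117 protein-coding mouse genes whose products carry signals below G-protein-coupled receptors, out of 15469 protein-coding genes named in the deposited peak annotations. They were chosen by name: every gene whose symbol begins with Gna, Gnb or Gng (heterotrimeric G-protein subunits), Rgs (regulators of G-protein signalling), Plcb (phospholipase C beta), Adcy (adenylyl cyclases), Pde (phosphodiesterases), Prka (mainly protein kinase A), Prkc (mainly protein kinase C) or Akap (A-kinase anchoring proteins). Peaks were counted for a gene when it was the gene with the nearest annotated start and that start lay within 100000 bp. A gene could enter the set only if a peak in some library was annotated to it, at any distance. Family members without such a peak are not among the 117, and the 15469 genes were limited in the same way. That 116 of the 117 had a peak within the window therefore follows largely from the choice. The exception was Gnal, which encodes the olfactory G-protein alpha subunit. At the edge of the window, the farthest FOXL2 peak counted in vehicle 1 lay 99.0 kb from Rgs2 and the nearest left out 100.6 kb from Gna14. The prefixes also catch genes with other functions, and these are kept in the counts: Prkaa, Prkab and Prkag genes encode AMP-activated protein kinase, Prkcsh a glucosidase subunit, Prkcdbp a cavin, Pde4dip a centrosomal scaffold, Pde12 a mitochondrial RNA phosphodiesterase, Pde6d a chaperone of prenylated proteins, Gnb2l1 the kinase scaffold RACK1, and Adcyap1 and Adcyap1r1 the peptide PACAP and its receptor.

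The cells were LβT2, an immortal mouse line with features of pituitary gonadotropes, stably transduced by lentivirus with a cassette that expresses GFP constitutively and FLAG-tagged mouse FOXL2 when doxycycline is given. Both groups carried the cassette and received doxycycline for 48 h, so FOXL2 was measured as the induced, tagged protein in every library. After 2 h in medium with 2% serum, the vehicle group received vehicle and the activin group 1 nM activin A, each for 1 h. Chromatin was precipitated for SMAD2/3, FLAG-FOXL2 or acetylated lysine 27 of histone H3 (H3K27ac), with 2 libraries for each target and treatment, each from 3 pooled plates. The labels do not say whether the 2 libraries came from separate experiments, so agreement between them may be technical, or whether libraries of different targets share chromatin.

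Gonadotropes secrete luteinizing hormone and follicle-stimulating hormone. Gonadotropin-releasing hormone acts on them through a receptor that couples mainly to Gq, which activates phospholipase C beta, releases calcium and activates protein kinase C. Receptors coupled to Gs, such as the PACAP receptor, act through adenylyl cyclase, cAMP and protein kinase A, and this signal is ended by phosphodiesterases and placed in the cell by anchoring proteins. Activin acts through receptor kinases that phosphorylate SMAD2 and SMAD3, which enter the nucleus and bind DNA with partners that include FOXL2, and H3K27ac marks active promoters and enhancers.

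The gonadotrope label was checked on H3K27ac at gene starts. An H3K27ac peak lay within 1000 bp of the start in all 4 libraries for 8 of 9 gonadotrope markers, among them Cga, Lhb, Gnrhr and Nr5a1, and the start of Fshb had none in any library. It lay at 0 of 5 starts of somatotrope, lactotrope and thyrotrope markers and at 1 of 3 corticotrope markers (Crhr1, with Pomc and Pax7 lacking it). Each FOXL2 list held between 83834 and 97701 peaks, and each H3K27ac list between 38995 and 41763. The SMAD2/3 lists were short under vehicle (605 and 144 peaks) and long under activin (7784 and 5970), and this held for the whole genome. Fold enrichment, given below as fold, is the authors' own linear ratio for each peak, and differences in it between libraries were not tested, since 2 libraries against 2 cannot give an exact permutation p below 0.333.

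SMAD2/3 was found near these genes almost entirely after activin. The 2 vehicle libraries had 1 and 0 peaks near the 117 genes, and the 2 activin libraries had 55 and 41. Overlapping peaks of the 4 libraries were merged into 59 regions. Of these, 35 (59.3%) were in both activin libraries and neither vehicle library, a class that held 54.1% of SMAD2/3 regions near all protein-coding genes. Another region was in both activin libraries and vehicle 1, 19 were in activin 1 only and 4 in activin 2 only (without activin 2 the activin-only count was 54), 0 were in vehicle only and 0 in all 4 libraries, classes that held 0.051% and 1.4% of the background. The share of activin-only regions is thus near the background and is no property of these genes. It also rests on lists of very different length. With each list cut to its strongest peaks down to the length of the shortest (144 peaks), 0 regions near these genes were activin-only. This had to be 0, because the best-placed region in both activin libraries stood at place 184 in activin 1. The cut therefore cannot show how far list length matters.

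**Figure D1:**
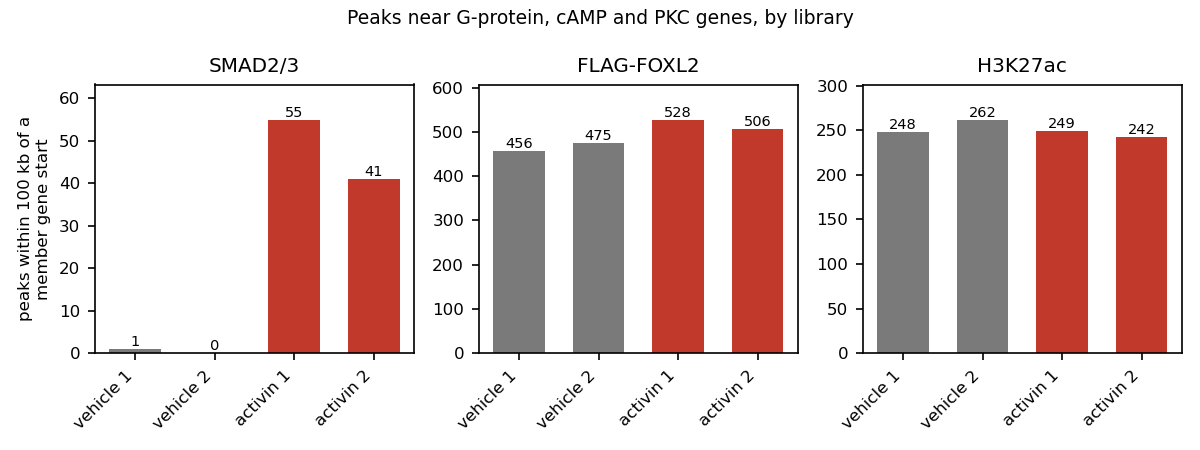
Number of peaks (vertical axis) within 100 kb of the start of a G-protein, cAMP or PKC gene in each of the 12 libraries (bars), by target, with vehicle in grey and activin in red. SMAD2/3 had 1 and 0 peaks under vehicle and 55 and 41 under activin, whereas FOXL2 had 456 to 528 and H3K27ac 242 to 262 in every library.

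The 36 SMAD2/3 regions found in both activin libraries belonged to 23 of the 117 genes (19.7%), and 11.1% of all protein-coding genes had such a region. The difference between these shares was not tested. By annotation 2 of the 36 lay at a promoter, 19 in an intron and 15 between genes, with a median distance of 22.5 kb from the start. Only 7 lay within 10 kb of the deposited start, 18 lay inside the gene they were assigned to and 3 inside another gene. Over all 59 SMAD2/3 regions near these genes the median distance was 22808 bp, against 15944 bp for the 3923 near all protein-coding genes. That difference was not tested, and the other position counts were not computed for the background. Below, distances are in kb from the start in the annotation, negative when upstream, and the 4 fold values of a region are always given in the order vehicle 1, vehicle 2, activin 1, activin 2.

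**Figure D2:**
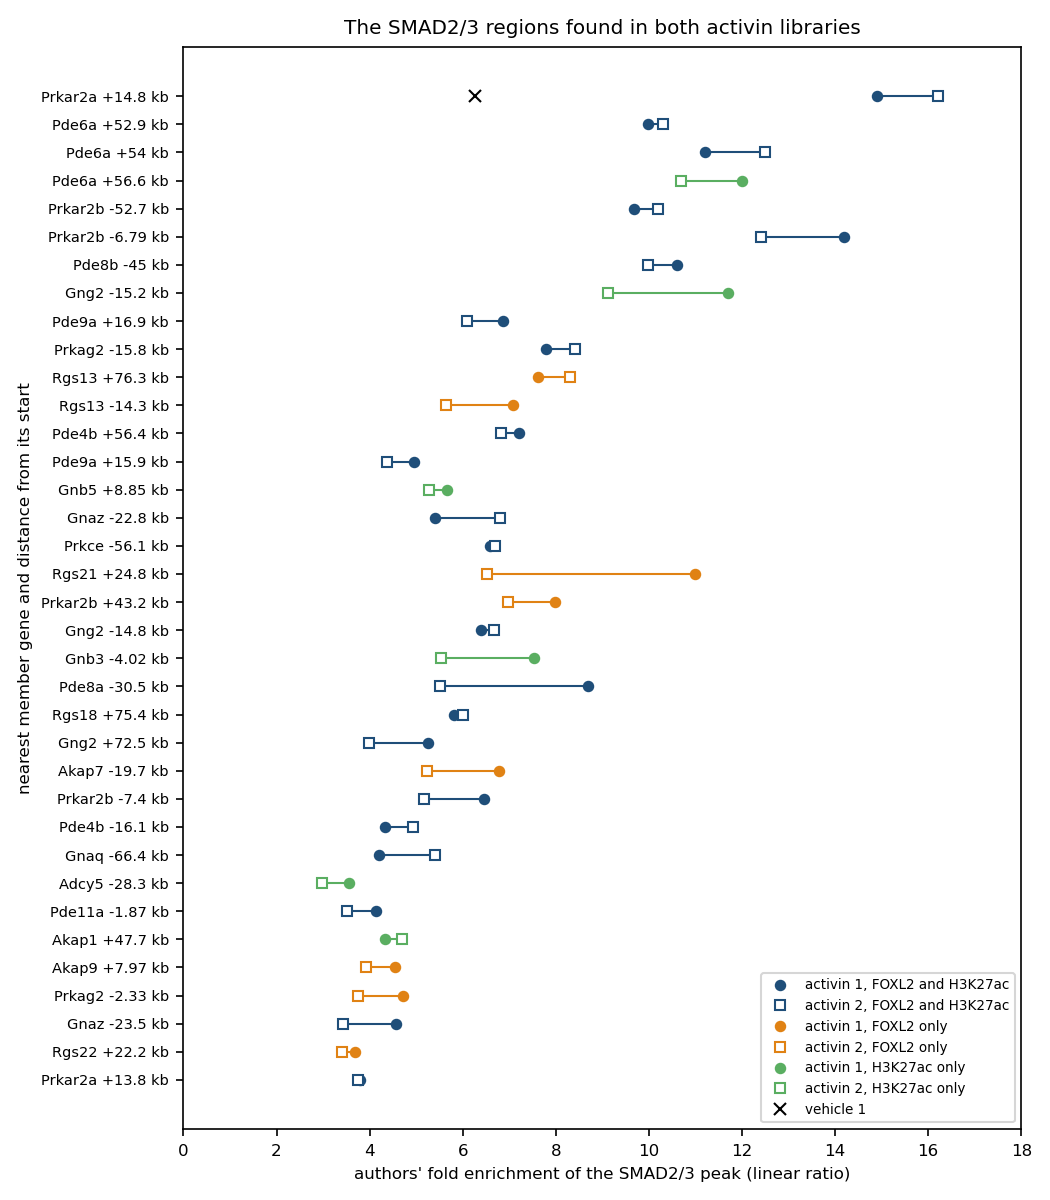
Fold enrichment of the 36 SMAD2/3 regions found in both activin libraries (horizontal axis, the authors' linear ratio; circles activin 1, squares activin 2, cross vehicle 1), ordered by their mean percentile in the 2 lists and coloured by the other targets found there in both activin libraries. The Prkar2a region at 14.8 kb is at the top with 14.9 and 16.2 and is the only 1 with a vehicle peak (6.26).

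Among the 13 G-protein alpha genes, Gnaz and Gnaq had SMAD2/3 regions in both activin libraries. Gnaz encodes the alpha subunit of Gz, which inhibits adenylyl cyclase. Its 2 regions stood next to each other at -22.8 kb (chr10:74944196-74944535, build mm10, intergenic; fold 5.40 in activin 1 and 6.81 in activin 2) and at -23.5 kb (4.56 and 3.43), with no vehicle peak at either. Both lay inside an H3K27ac region whose fold was 6.94, 6.41, 8.90 and 7.84, higher in both activin libraries than in either vehicle library, and each overlapped a FOXL2 region found in all 4 libraries.

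Gnaq encodes the Gq alpha subunit through which the gonadotropin-releasing hormone receptor mainly signals. Its SMAD2/3 region lay at -66.4 kb (chr19:16066687-16067031, intergenic; fold 4.21 and 5.40 under activin). The FOXL2 region there was strong in every library (37.7, 28.7, 32.5 and 26.6), with overlap between the treatments. An H3K27ac peak at the edge of the SMAD2/3 region was present in both activin libraries only (3.09 and 3.03). Such H3K27ac regions of 1 treatment were weak throughout: with -log10 q of at least 5 asked of both libraries that hold the peak, 0 of the 22 activin-only and 1 of the 24 vehicle-only regions counted, that of Akap9 at 8.54 kb. The start of Gnaq carried H3K27ac in all 4 libraries, in a region at -1.21 kb (5.02, 4.51, 4.47 and 4.64) and another at 0.062 kb (3.46, 2.94, 2.70 and 5.52).

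H3K27ac was at the deposited start in all 4 libraries for 4 alpha genes, Gna13, Gnai3, Gnaq and Gnaz. The annotation gives 1 start per gene, and with any RefSeq start allowed Gna11, Gnas and Gnao1 joined them, so that the genes for Gq, G11, Gs, Gi, Go, Gz and G13 subunits had an acetylated start. The other 6 had none in all 4 libraries at any start: Gna12, Gna14, Gna15, the taste and cone subunits Gnat3 and Gnat2, and Gnal. At Gna12 an H3K27ac region at 1.7 kb was found in both activin libraries only (3.60 and 3.04). Gnai3 had a FOXL2 region at 16.2 kb, in its own intron, in both vehicle libraries only (9.02 and 6.76). Its H3K27ac region at 16.5 kb was likewise in vehicle only (3.01 and 2.82).

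All 7 genes of the set with a Gnb prefix had an acetylated start in all 4 libraries when any RefSeq start was allowed. At the deposited start 5 had it (Gnb1l, Gnb2, Gnb2l1, Gnb3 and Gnb4, without Gnb1 and Gnb5). The highest was Gnb2, with a fold of 10.6, 9.74, 10.9 and 9.55. The only H3K27ac region assigned to Gnb2 was in activin only, so the vehicle peaks at its start were annotated to another gene. Gnb5, whose product pairs with the Rgs7 and Rgs9 class of regulators, had a SMAD2/3 region at 8.85 kb in its intron (chr9:75319884-75320441; 5.66 and 5.27 under activin). That site had no FOXL2 peak, and its H3K27ac fold was 4.32, 3.81, 7.04 and 7.01, so both activin values stood well above both vehicle values. Gnb3 had a SMAD2/3 region at -4.02 kb (7.53 and 5.53) inside an H3K27ac region whose values overlapped between treatments (8.35, 8.38, 8.86 and 7.90).

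Of the 7 gamma genes in the set, Gng2, Gng3, Gng4 and Gng5 had an acetylated start in all 4 libraries, Gng10 in 3, and Gng11 and Gng13 in none. Gng2 was the gamma gene with SMAD2/3 regions in both activin libraries, at -15.2 kb (chr14:19992233-19992502; 11.7 and 9.12), at -14.8 kb (6.39 and 6.68) and, in its intron, at 72.5 kb (5.25 and 3.99). The intronic site differed from those upstream in the order of its H3K27ac folds, a difference that was not tested. Its H3K27ac fold was 7.59, 7.23, 4.56 and 4.49, lower in both activin libraries, in a region that covers only the edge of the SMAD2/3 region. The FOXL2 region there was in all 4 libraries (18.1, 13.7, 15.5 and 12.3). At the upstream pair H3K27ac was found in vehicle 1 and in both activin libraries (3.31, 5.12 and 4.52), with the activin values higher. Of the 8 H3K27ac regions of Gng2 found in all 4 libraries, 5 were higher in both vehicle libraries, 0 in both activin libraries, and the start itself was among the 5 (5.20, 4.98, 4.66 and 4.27).

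Gng4 had 5 FOXL2 regions in both activin libraries only, and no other of the 117 genes except Prkci, also with 5, had as many. The strongest lay at -77.2 kb inside Lyst (10.3 and 11.0 under activin, none under vehicle).

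The 21 genes with an Rgs prefix encode mainly proteins that speed up GTP hydrolysis by G-protein alpha subunits. Of the 18 with a known start, 4 had it acetylated at the deposited position (Rgs2, Rgs4, Rgs22 and Rgs7bp), and 9 at any start, with Rgs3, Rgs7, Rgs9, Rgs12 and Rgs19 added. The 9 without were Rgs1, Rgs8, Rgs10, Rgs13, Rgs16, Rgs17, Rgs18, Rgs21 and Rgsl1. Rgs14, Rgs20 and Rgs9bp had no start that could be placed.

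SMAD2/3 regions in both activin libraries belonged to Rgs13, Rgs18, Rgs21 and Rgs22, and 3 of these genes share a stretch of chromosome 1 with Rgs1 and Rgs2, so their sites are not independent loci. Rgs13 had them at 76.3 kb (chr1:144100885-144101128; 7.61 and 8.31) and at -14.3 kb (chr1:144191331-144191844; 7.08 and 5.65). The FOXL2 fold at the former was 26.2, 24.1, 41 and 38.9, and at the latter 20.0, 11.4, 22.2 and 21.7, higher in both activin libraries at both. Rgs21 had a region at 24.8 kb in its intron (11.0 and 6.53), where FOXL2 was again higher in both activin libraries (9.12, 4.45, 16.6 and 11.7).

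Of the 5 SMAD2/3 regions of Rgs genes, Rgs18 at 75.4 kb had H3K27ac in all 4 libraries (3.50, 3.51, 3.75 and 3.65). Rgs13 at -14.3 kb (2.62, 2.49 and 2.41) and Rgs22 at 22.2 kb (3.10, 3.36 and 3.35) had it in both vehicle libraries and activin 1 and lacked a peak in activin 2. Rgs13 at 76.3 kb and Rgs21 overlapped no H3K27ac region. All 5 had a FOXL2 peak in both activin libraries. At Rgs22 the FOXL2 fold was lower in both activin libraries (5.79, 6.16, 4.84 and 3.88), although SMAD2/3 was called there at 3.68 and 3.40.

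Rgs2, which acts chiefly on Gq, had no SMAD2/3 peak assigned to it. The SMAD2/3 region at chr1:144100885-144101128 also lies within 100000 bp of its start, but was assigned to Rgs13, whose start is nearer. Rgs2 had 14 FOXL2 regions in all 4 libraries. Of these 14, 6 had a higher fold in both activin libraries and 2 in both vehicle libraries. The strongest lay at -41.3 kb, with 18.3, 13.5, 27.7 and 23.1. Rgs12 had the widest H3K27ac region of any of these genes found in all 4 libraries, 9761 bp (chr5:34953287-34963047). Its values overlapped between treatments (6.0, 4.78, 5.37 and 5.15). A SMAD2/3 region within it, at -13.6 kb, was in activin 1 only (6.38).

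Phospholipase C beta and protein kinase C act directly below Gq. The Plcb genes of the set (Plcb2, Plcb3 and Plcb4), whose enzymes make inositol trisphosphate and diacylglycerol, had 0 SMAD2/3 regions in both activin libraries. Plcb3 had an acetylated deposited start (5.73, 5.58, 5.66 and 5.11), Plcb4 an acetylated start elsewhere, and Plcb2 none. Plcb4 had 5 FOXL2 regions in all 4 libraries and 1 SMAD2/3 region in a single activin library.

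Of the 11 genes with a Prkc prefix, only Prkcsh, which is no protein kinase C, had H3K27ac at the deposited start in all 4 libraries (3.93, 3.64, 3.14 and 3.13). With any RefSeq start, Prkca, Prkcb, Prkci, Prkcq and Prkcz joined it, and Prkcd, Prkce, Prkch and Prkcdbp did not. Prkce, a kinase that needs diacylglycerol and not calcium, was the Prkc gene with a SMAD2/3 region in both activin libraries by nearest start within the window, at -56.1 kb within the gene (chr17:86434341-86434539; 6.58 and 6.70). FOXL2 there was 10.4, 13.7, 22.2 and 19.7, and H3K27ac 6.14, 5.95, 7.75 and 6.98, both higher in each activin library than in either vehicle library. Other sites of Prkce went the opposite way: FOXL2 regions at -47.1 kb (6.65 and 6.94) and at -60.5 kb (3.95 and 4.38) were in both vehicle libraries only. Prkci, an atypical kinase, had 5 FOXL2 regions in both activin libraries only, the strongest at -7.66 kb (8.57 and 6.17), and 0 in vehicle only. Prkcb, Prkcq, Prkce and Prkch hold further SMAD2/3 regions that are outside these counts because the nearest start is another gene's or, for Prkch, farther than the window.

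Adenylyl cyclase 5, which calcium inhibits, is encoded by Adcy5, the cyclase gene with a SMAD2/3 region in both activin libraries. It had 8 H3K27ac regions in all 4 libraries, of which 4 were higher in both activin libraries and 0 in both vehicle libraries. A SMAD2/3 region at -28.3 kb (chr16:35126449-35126716) was found at a low fold under activin (3.55 and 2.98), without FOXL2, in an H3K27ac region with 5.84, 5.58, 7.19 and 6.20. The 7 FOXL2 regions of Adcy5 in all 4 libraries included 4 that were higher in both vehicle libraries. Its far introns hold a stronger SMAD2/3 region (chr16:35261544-35262049) that was in all 4 libraries, with 6.77, 4.54, 15.0 and 16.4. That region is outside the counts above because the nearest annotated start is that of a small nuclear RNA gene.

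Of the other cyclase genes, Adcy10, the soluble cyclase, had an acetylated start (4.78, 4.24, 5.65 and 6.02), higher in both activin libraries, and Adcy3, Adcy6, Adcy8 and Adcy9 did not have one in all 4. Adcy3 had an H3K27ac region at -18.4 kb in both vehicle libraries only (3.60 and 4.06). Its FOXL2 region at -17.2 kb was in vehicle only too (6.69 and 4.43). Neither Adcyap1 nor Adcyap1r1 had an acetylated start.

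Of the 20 Pde genes, 6 had SMAD2/3 regions in both activin libraries: Pde4b, Pde6a, Pde8a, Pde8b, Pde9a and Pde11a. The Pde6a sites, 3 in number at 52.9 kb (9.97 and 10.3), 54.0 kb (11.2 and 12.5) and 56.6 kb (12 and 10.7), lie inside the neighbouring gene Ppargc1b, a transcriptional coactivator, so their assignment to the rod photoreceptor gene Pde6a rests on the nearest start alone. They share 1 H3K27ac region of 9527 bp with 6.65, 6.21, 10.1 and 8.96, and 2 further H3K27ac regions in introns of Ppargc1b, at 39.4 kb (2.99 and 3.70) and 44.8 kb (3.30 and 3.03), were in both activin libraries only. The start of Pde6a had no H3K27ac in any library.

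Pde9a, which degrades cGMP, had SMAD2/3 regions at 16.9 kb (chr17:31469932-31470584; 6.86 and 6.09) and 15.9 kb (4.96 and 4.37), within an H3K27ac region of 9.85, 8.84, 11.4 and 10.1. Its start was also higher in both activin libraries (5.20, 5.05, 7.30 and 7.09). Pde8b and Pde8a encode cAMP-specific enzymes. The Pde8b site at -45.0 kb (chr13:95267717-95267976; 10.6 and 9.98) had H3K27ac in all 4 libraries with overlapping values (6.13, 5.17, 6.17 and 5.44), and FOXL2 lower in both activin libraries (8.76, 9.10, 6.87 and 7.43). The Pde8a site at -30.5 kb (8.70 and 5.52) had H3K27ac in activin only (2.86 and 2.77), and FOXL2 in vehicle 1 at 3.92 and in the activin libraries at 19.6 and 15.6.

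Pde4b, another cAMP-specific enzyme, combined SMAD2/3 after activin with lower H3K27ac at its 2 regions found in both activin libraries. These SMAD2/3 regions lay at 56.4 kb (chr4:102311496-102311757, 7.21 and 6.83) and -16.1 kb (chr4:102239027-102239304, 4.32 and 4.93), both in its introns. At the former H3K27ac was 5.40, 5.39, 4.17 and 4.54, and at the latter 6.82, 6.08, 3.71 and 3.47. At both sites each activin value was below both vehicle values. Another SMAD2/3 region, at 24.9 kb, was in activin 1 only (8.46). It lay in an H3K27ac region that was higher in both activin libraries (3.72, 2.93, 3.99 and 3.90). The deposited start had H3K27ac in both vehicle libraries (3.01 and 3.06) and in neither activin library, and a region at -19.6 kb was also in vehicle only (3.12 and 2.88). Of 6 H3K27ac regions of Pde4b in all 4 libraries, 4 were higher in both vehicle libraries and 1 in both activin libraries. FOXL2 occupied 20 regions of Pde4b in all 4 libraries, 4 of them higher in both activin libraries and 2 in both vehicle libraries.

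Pde11a, which degrades cAMP and cGMP, had 14 FOXL2 regions in all 4 libraries and a SMAD2/3 region at -1.87 kb (chr2:76217088-76217432; 4.13 and 3.51). The H3K27ac region there was lower in both activin libraries (4.84, 4.63, 3.33 and 3.56), and a region at 25.6 kb was in vehicle only (2.93 and 2.85). Pde10a had a FOXL2 region at -58.5 kb in activin only (7.72 and 8.23) and 1 at -22.1 kb in vehicle only (5.24 and 6.36). H3K27ac was at the deposited start in all 4 libraries for Pde6d, Pde7a, Pde9a and Pde12, and at another start for Pde4b, Pde4dip, Pde8a and Pde11a. It was not for Pde1a, Pde3b, Pde4a, Pde4c, Pde4d, Pde6a, Pde6c, Pde6h, Pde7b, Pde8b and Pde10a, and Pde6g had no start that could be placed.

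All 12 genes of the set with a Prka prefix, each of them named at a peak, had an acetylated start in all 4 libraries when any RefSeq start was allowed. At the deposited start 8 had it (Prkaa1, Prkaa2, Prkab1, Prkaca, Prkag1, Prkag2, Prkar2a and Prkar2b), and 4 did not (Prkab2, Prkacb, Prkar1a and Prkar1b). SMAD2/3 regions in both activin libraries belonged to both type II regulatory subunits of protein kinase A, Prkar2a and Prkar2b, and to the kinase subunit gene Prkag2.

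Prkar2a had the region with the highest mean percentile of all 36, at 14.8 kb in its intron (chr9:108707018-108707476). Its SMAD2/3 fold was 6.26 in vehicle 1 and 14.9 and 16.2 in the activin libraries, with no peak in vehicle 2. By -log10 q it stood at place 184 in the activin 1 list and 131 in the activin 2 list. H3K27ac there was 3.41, 2.86, 6.83 and 5.74, and FOXL2 14.4, 13.6, 17.9 and 16.4, both higher in each activin library. A weaker SMAD2/3 region lay at 13.8 kb (3.79 and 3.75). The start of Prkar2a was likewise higher in both activin libraries (5.46, 5.98, 7.79 and 6.73), as were all 4 of its H3K27ac regions found in all 4 libraries.

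Prkar2b had 4 SMAD2/3 regions in both activin libraries, more than any other of the 117 genes, and none under vehicle. They lay at -52.7 kb (chr12:32113124-32113474; 9.67 and 10.2), -6.79 kb (chr12:32067120-32067553; 14.2 and 12.4), -7.40 kb (6.46 and 5.16) and, in an intron, 43.2 kb (7.98 and 6.97). FOXL2 had 21 regions in all 4 libraries there, also the most of any of these genes. The sites at -6.79 and -7.40 kb share 1 FOXL2 region with 70.0, 64.7, 64.4 and 56.8, and the intronic site had 76.1, 76.8, 71.7 and 78.7. At -52.7 kb, FOXL2 was called only under activin (4.14 and 5.25).

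H3K27ac at Prkar2b did not go 1 way along the locus. Of 10 H3K27ac regions in all 4 libraries, 6 were higher in both activin libraries, among them the wide region at -53.4 kb (6.97, 6.69, 8.83 and 8.91) and the region at -7.22 kb (3.45, 2.88, 4.04 and 4.06). The start was among the 2 that were higher in both vehicle libraries (9.17, 7.27, 6.94 and 6.94). The intronic SMAD2/3 site at 43.2 kb had no H3K27ac in both activin libraries.

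**Figure D3:**
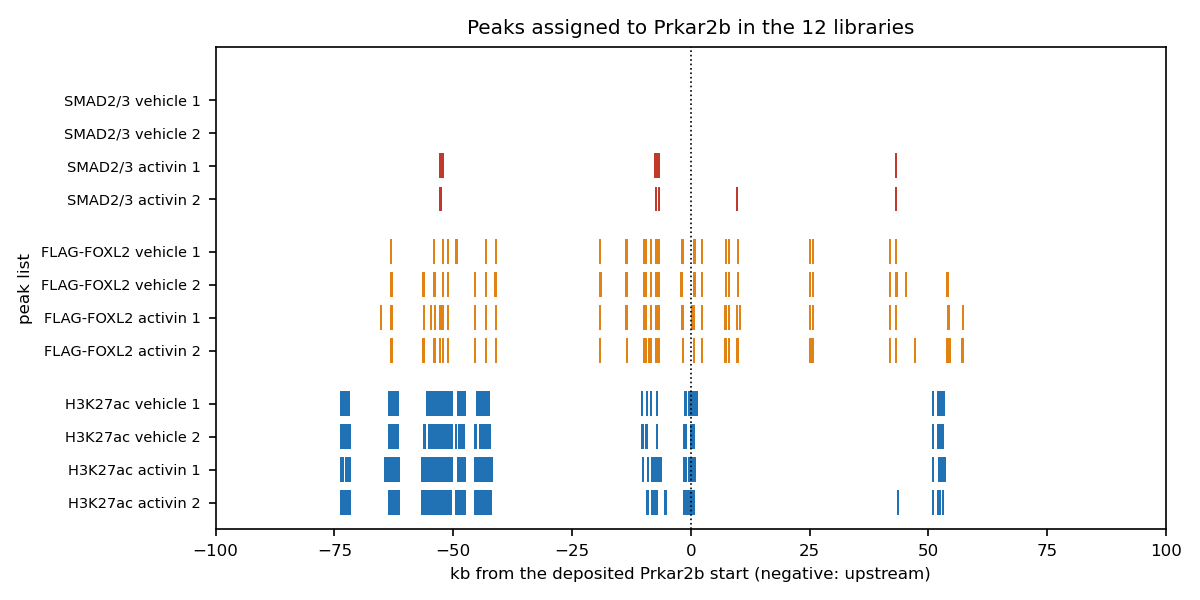
Peaks assigned to Prkar2b in each of the 12 libraries (rows), drawn by their distance in kb from the deposited start (horizontal axis, dotted line at the start, negative upstream); peaks narrower than 0.5 kb are drawn 0.5 kb wide. SMAD2/3 rows are empty under vehicle and hold the sites at -52.7, -7.40, -6.79 and 43.2 kb in both activin libraries, whereas FOXL2 and H3K27ac have peaks along the locus in all 4 libraries of each.

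Prkag2, which encodes a gamma subunit of AMP-activated protein kinase, had SMAD2/3 regions at -15.8 kb (chr5:24924021-24924497; 7.78 and 8.42) and -2.33 kb (4.72 and 3.74). The former had FOXL2 at 53.2, 54.0, 60.0 and 55.4 and H3K27ac at 2.60, 2.86, 3.60 and 3.86, both higher in each activin library. The latter had FOXL2 in all 4 libraries (26.3, 28.4, 25.3 and 22.9) and no H3K27ac. The catalytic subunit genes of protein kinase A had no SMAD2/3 region: Prkaca had an acetylated start (3.69, 3.33, 4.60 and 3.80), and Prkacb had 9 FOXL2 regions in all 4 libraries and 2 H3K27ac regions in vehicle only. Prkaa2 had a FOXL2 region at 14.0 kb in vehicle only (4.60 and 5.88).

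FOXL2 regions of Prkar1a lay at a promoter, and promoter sequences show what lies there. RefSeq promoter windows (250 bases before to 50 after a start, build GRCm38.p6) were at hand for 91 of the 117 genes, 142 windows in all. A SMAD2/3 region overlapped 0 of the 142 (the Gnb3 and Pde9a regions annotated as promoter, and an Akap1 region at -142 bp found in activin 1 only, lie at starts outside these windows), and a FOXL2 region found in all 4 libraries overlapped 7, of 6 genes (Prkar1a, Gng2, Pde12, Pde6d, Prkacb and Pde4b). These overlaps were not computed for the windows of other genes, so the counts have no background share and show nothing particular to this set. The mean summit lay inside the window for Prkar1a, Gng2, Pde12 and Pde4b, and the Pde4b region (18.1, 20.9, 18.6 and 21.1) is not in the counts of Pde4b because the annotation gives another gene's start as the nearest. Shown are the 3 windows whose region is assigned to the gene, of Prkar1a (chr11:109649113-109649412, plus strand), Gng2 (chr14:19976644-19976943, minus strand) and Pde12 (chr14:26669797-26670096, minus strand), 5′ to 3′ in the direction of the gene. Capitals mark matches to any of the motifs searched on both strands, CAGAC (a SMAD half-site), GTCTAGAC (a palindromic SMAD site), TGTTTAC and TGTTTGC (forkhead), TGACGTCA (the full cAMP response element) and TGACTCA (an AP-1 site, bound by factors that protein kinase C activates).
Prkar1a: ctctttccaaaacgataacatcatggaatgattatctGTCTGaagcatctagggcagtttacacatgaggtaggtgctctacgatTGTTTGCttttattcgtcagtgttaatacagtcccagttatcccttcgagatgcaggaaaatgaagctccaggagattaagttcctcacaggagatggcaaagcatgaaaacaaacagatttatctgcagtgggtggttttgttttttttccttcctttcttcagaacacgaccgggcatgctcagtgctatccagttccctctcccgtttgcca
Gng2: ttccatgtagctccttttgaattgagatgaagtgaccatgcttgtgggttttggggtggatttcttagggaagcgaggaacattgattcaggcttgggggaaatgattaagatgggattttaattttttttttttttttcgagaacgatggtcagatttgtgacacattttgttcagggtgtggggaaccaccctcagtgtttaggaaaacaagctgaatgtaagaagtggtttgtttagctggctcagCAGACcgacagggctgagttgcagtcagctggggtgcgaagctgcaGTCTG
Pde12: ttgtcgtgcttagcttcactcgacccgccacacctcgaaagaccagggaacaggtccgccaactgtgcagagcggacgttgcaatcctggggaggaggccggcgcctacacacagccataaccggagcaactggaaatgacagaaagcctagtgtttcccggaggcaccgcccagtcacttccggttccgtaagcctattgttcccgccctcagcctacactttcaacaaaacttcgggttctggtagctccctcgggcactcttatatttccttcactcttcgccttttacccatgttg

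At Prkar1a, the type I regulatory subunit gene, the FOXL2 fold was 26.6, 27.8, 19.0 and 17.3, lower in both activin libraries, with the mean summit at -138 bp. The window holds TGTTTGC and, as its complement, CAGAC. At Gng2 the fold was 5.36, 2.87, 4.70 and 4.11 with the summit at -95 bp and CAGAC matches only, and at Pde12 it was 5.17, 8.77, 3.99 and 5.19 with the summit at -25 bp and no match. The motifs were about as frequent in the 142 windows as in all 32851: CAGAC in 47.2% against 49.6%, TGTTTAC in 2.82% against 3.65%, TGTTTGC in 6.34% against 5.07%, TGACTCA in 4.93% against 5.20% and GTCTAGAC in 0 against 0.213%. TGACGTCA was in 2.11% against 1.79%, in windows of Prkar1a and Prkcz. A match is a run of letters and not a bound site.

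Among the 15 anchoring-protein genes, Akap1, Akap7 and Akap9 each had 1 SMAD2/3 region in both activin libraries. Akap1, whose product anchors the kinase at mitochondria, had it at 47.7 kb (chr11:88793656-88794061; 4.32 and 4.70), without FOXL2 and with H3K27ac in activin only (3.99 and 3.42). Akap7 at -19.7 kb (6.77 and 5.23) had FOXL2, higher in both activin libraries (26.9, 15.1, 32.7 and 28.7), and no H3K27ac. Akap9, a scaffold at the Golgi and centrosome, had its region at 7.97 kb (4.54 and 3.92) at a FOXL2 site that was lower in both activin libraries (44.6, 37.4, 30.3 and 30.4). H3K27ac regions flanking that site, at 8.54 kb (3.41 and 2.98) and 7.37 kb (3.58 and 2.85), were in both vehicle libraries only.

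Akap8l had the activin-only FOXL2 region with the highest mean percentile, at 3.25 kb in its intron (chr17:32347002-32347559; 10.0 and 12.6). It lies in an H3K27ac region of 9151 bp that was higher in both activin libraries (4.93, 4.74, 6.19 and 5.96). Akap2 went the other way, with an H3K27ac region of 8819 bp at -30.7 kb that was lower in both activin libraries (8.33, 6.35, 5.70 and 5.80). Akap13 had 16 FOXL2 regions in all 4 libraries, the strongest under activin at 49.0 kb (16.6, 7.98, 37.7 and 32.2). The deposited start was acetylated in all 4 libraries for Akap1, Akap5, Akap8, Akap8l, Akap10, Akap11, Akap13 and Akap17b, another start for Akap9, and no start for Akap2, Akap4, Akap6, Akap7, Akap12 and Akap14.

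**Figure D4:**
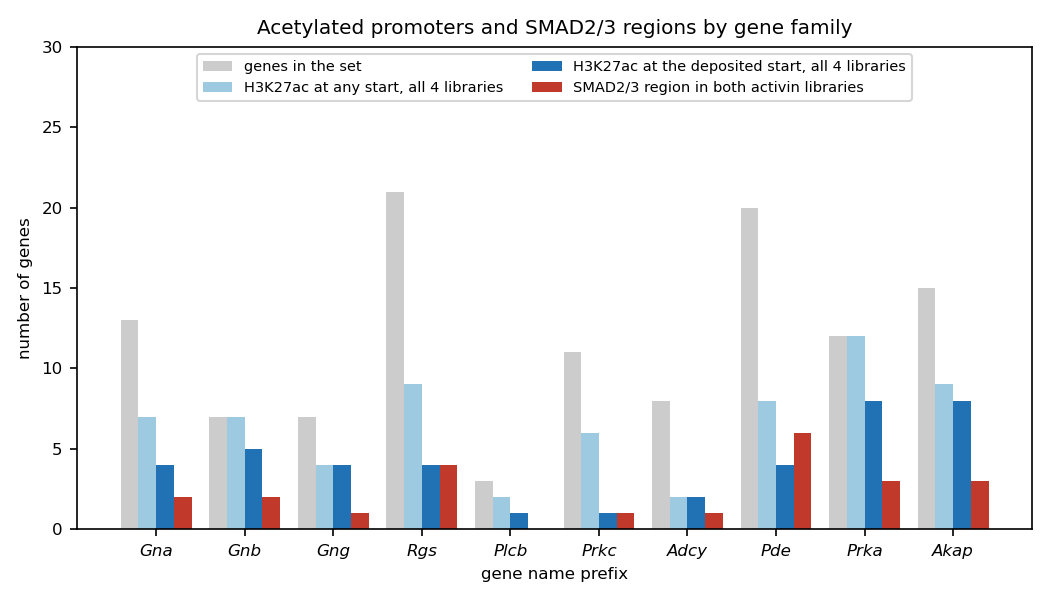
Number of genes (vertical axis) for each gene name prefix (horizontal axis): genes in the set, genes with H3K27ac in all 4 libraries within 1 kb of any start or of the deposited start, and genes with a SMAD2/3 region in both activin libraries. At the deposited start H3K27ac is found for 8 of 12 Prka, 5 of 7 Gnb, 4 of 18 Rgs (those with a known start) and 2 of 8 Adcy genes, and at any start for 12, 7, 9 and 2 of them, with 44.9% and 56.5% for all protein-coding genes; differences between families were not tested.

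Over all families, H3K27ac was at the deposited start in all 4 libraries for 41 of 113 genes (36.3%), against 44.9% of all protein-coding genes. With any RefSeq start the count was 66 of 113 (58.4%), against 56.5%, so the order of these genes and the background depends on which starts are used. Of the 23 genes with SMAD2/3 regions in both activin libraries, 11 had an acetylated deposited start and 12 did not.

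At the 36 SMAD2/3 regions a FOXL2 peak was found in both activin libraries at 30 (83.3%, Wilson 95% interval 68.1 to 92.1) and an H3K27ac peak at 28 (77.8%, 61.9 to 88.3). For all protein-coding genes these shares were 79.9% and 79.6%, inside both intervals, which cover counting error only. An overlap of 1 bp was enough, and at Gnaq, Pde8b and Prkce, for example, H3K27ac met only the edge of the SMAD2/3 region. With at least 50% of the SMAD2/3 region covered, the shares near these genes were 80.6% for FOXL2 and 63.9% for H3K27ac. That was not computed for all protein-coding genes. The 36 regions split into 22 with both, 8 with FOXL2 alone, 6 with H3K27ac alone and 0 with neither. FOXL2 alone was found at both Rgs13 sites, Rgs21, Rgs22, the intronic site of Prkar2b, Akap7, Akap9 and the Prkag2 site at -2.33 kb. H3K27ac alone was found at Gnb3, Gnb5, Adcy5, Akap1 and 1 site each of Gng2 and Pde6a. In the activin libraries the median distance between the SMAD2/3 summit and the nearest FOXL2 summit was 37.0 and 43.5 bp, against 39 and 40 bp for all protein-coding genes. Of the 36 sites, 25 (69.4%, against a background of 68.5%) overlapped a FOXL2 region found in all 4 libraries and 3 (8.33%, against 6.89%) an activin-only one, at Pde6a, Prkar2b and Gng2.

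H3K27ac at those sites was mostly higher after activin. Of 17 H3K27ac regions in all 4 libraries that held a SMAD2/3 region, 11 (64.7%) had a higher fold in both activin libraries and 4 (23.5%) in both vehicle libraries. Over all protein-coding genes the shares were 68.6% and 11.8%. The 4 were the intronic Gng2 region, both Pde4b regions and the Pde11a region, and the 2 with overlapping values were Gnb3 and Pde8b. Over all 152 H3K27ac regions in all 4 libraries 50 (32.9%) were higher in both activin libraries and 39 (25.7%) in both vehicle libraries, against 25.4% and 25.1%. Without vehicle 1 the former count was 83, and without vehicle 2 the latter was 65. At the 135 regions without SMAD2/3, 28.9% were higher in both activin libraries and 25.9% in both vehicle libraries, against 21.1% and 26.4% for all protein-coding genes. Of the 36 SMAD2/3 sites, 3 (8.33%) overlapped an activin-only H3K27ac region (Akap1, Gnaq and Pde8a) and 0 a vehicle-only one, against 8.43% and 0.128% for all protein-coding genes.

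**Figure D5:**
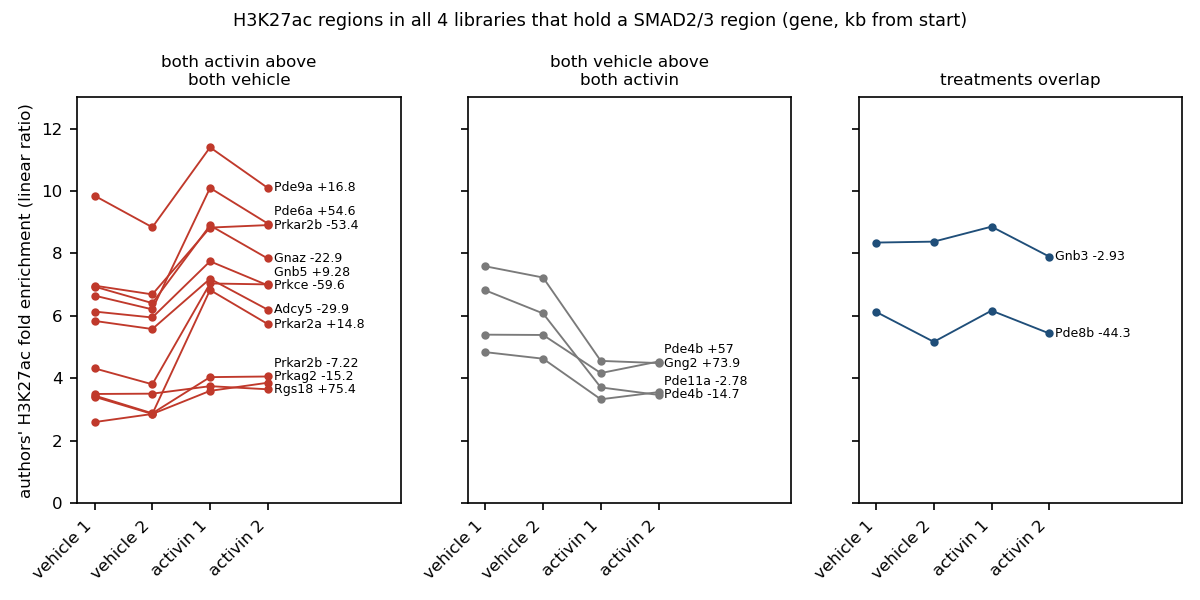
H3K27ac fold enrichment (vertical axis, the authors' linear ratio) in the 4 libraries (horizontal axis) for the 17 regions that were in all 4 libraries and hold a SMAD2/3 region, each line 1 region labelled by gene and kb from its start. In 11 both activin values exceed both vehicle values, in 4 (2 of Pde4b, Gng2 and Pde11a) they are below, and in 2 they overlap.

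Counted over all sites, of 655 FOXL2 regions, 333 (50.8%) were in all 4 libraries, 57 (8.70%) in both activin libraries only and 23 (3.51%) in both vehicle libraries only. The background shares were 47.0%, 8.32% and 3.36%. Of 336 H3K27ac regions, 152 (45.2%) were in all 4, 22 (6.55%) in activin only and 24 (7.14%) in vehicle only, against 51.4%, 5.33% and 5.35%. Among the 333 FOXL2 regions 83 (24.9%) were higher in both activin libraries and 89 (26.7%) in both vehicle libraries, against 25.6% and 27.8%. At the 24 of them that held a SMAD2/3 region the counts were 9 and 6, or 37.5% and 25.0%, against 47.2% and 20.1%. Regions in 1 treatment only mark a peak called in both of its libraries and in neither of the others, so the counts move when a library is left out: activin-only FOXL2 regions numbered 88 without vehicle 1 and 104 without activin 2, and vehicle-only ones 62, 48 and 37 without vehicle 1, vehicle 2 and activin 2. For H3K27ac, activin-only regions numbered 49 without activin 1 and 48 without activin 2, and vehicle-only ones 57, 49 and 43 without vehicle 1, vehicle 2 and activin 1.

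Genes of the same pathways with other names gave a further view. Of 55 such genes in the annotations, 8 had SMAD2/3 regions in both activin libraries (13 regions), beside the 11.1% of all protein-coding genes: Gnrhr, Camk2g, Creb1, Dgkh, Dgki, Plce1, Grk5 and Itpr1. The receptor gene Gnrhr had 1 at its own promoter, at -0.2 kb (chr5:86197863-86198344; 10.6 and 9.46 under activin, none under vehicle). The others of the 13 lay farther from the start, from 4.7 kb at Camk2g to -74.6 kb at Plce1. Creb1, the factor that protein kinase A phosphorylates, had regions at -37.6 kb (8.52 and 7.43) and -8.1 kb (5.04 and 4.79). Of the 13 regions, all had FOXL2 and all but that of Grk5, a receptor kinase gene, had H3K27ac in both activin libraries. H3K27ac was at the deposited start of 22 of the 55 genes in all 4 libraries, beside the 44.9% of all protein-coding genes.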

How the data were processed

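ChIP-seq peak lists of 12 libraries from LβT2 cells were analysed (2 libraries for each of 3 targets and 2 treatments). A Protein-A control sample is described in the labels and was not analysed here. Per the submitters' processing notes, the tools were Bowtie2, MACS2 and HOMER and the builds GRCm38 and mm10, names for the same assembly. Settings and the use of the control are not given in the sources used here. Peak names show that the authors called peaks in each library separately. The deposited lists give a score, a fold enrichment (a linear ratio) and -log10 p and q for each peak, and the deposited HOMER annotation gives the nearest start, its distance and 1 start per gene. Read depth is unknown from these lists, so no interval on a fold was given.

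Peaks of the 4 libraries of a target were merged where they overlapped by at least 1 bp, a region was assigned to the gene to which any of its peaks was annotated, and the strongest peak by -log10 q gave its values. Classes were activin-only (both activin, neither vehicle library), vehicle-only and all 4. A start was called acetylated with an H3K27ac peak within 1000 bp in all 4 libraries. The fold of a start is the highest of such peaks in each library, and these peaks may lie in different regions. Starts and strands came from the annotation and RefSeq (91 genes), from agreement of distances (22) or could not be placed (4). Intervals are Wilson 95%. No test was run over the genes, and the counts stand beside the same counts for all protein-coding genes. Python 3.11.15 with pandas 2.3.3, numpy 2.4.6 and scipy 1.17.1 was used, and the merging was tested on simulated peaks. Alternatives covered the -log10 q threshold, overlap, window, list length, single libraries and which starts count.

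Members and gene lists were chosen with earlier results of these data known. Genes were named by rule: the 12 SMAD2/3 regions with the highest mean percentile in both activin libraries, the gene with most SMAD2/3 regions in each family, the strongest regions of 1 treatment, the genes with most FOXL2 and the widest H3K27ac regions, promoters by family, and any gene in a count of 5 or fewer. Gna12, Gnb2, Plcb3, Prkci, Adcy10, Prkaca and Prkacb were given values after these were seen. Sequences of peaks had been planned; RefSeq promoter windows (GRCm38.p6) were printed in their place. Some items are not reported here.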

Additional observations from a re-analysis of the deposited data

How the results depend on the processing

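Of 91 recomputed values for 11 results, 59 were within 1.5 times the reported count (or inside the interval of a reported share) and 32 were not. Reversals were not scored. Alternatives on gene bodies, RefSeq starts, percentile ranks and single libraries for the H3K27ac order were chosen after seeing the data. No paired analysis was possible because no result comes from a test. The 35 activin-only SMAD2/3 regions became 0 with lists cut to the shortest, a cut that had to give 0, as said above. They became 7 in a 10 kb window and 57 with gene bodies counted, and 35 to 54 with 1 library left out. Activin-only FOXL2 regions (57) were 37 with -log10 q of at least 5 for presence, 18 within 10 kb, 110 with gene bodies and 81 to 104 with 1 library left out; vehicle-only ones (23) were 14, 9 within 10 kb and 32 to 62. Activin-only H3K27ac regions (22) were 4 with that threshold for presence and absence, 0 for presence only, 10 within 10 kb, 40 with gene bodies and 24 to 49 with 1 library left out; vehicle-only ones (24) were 5, 1, 11, 37 and 28 to 57. H3K27ac at SMAD2/3 regions went from 77.8% to 61.1% when its peaks needed -log10 q of at least 5. Acetylated starts went from 41 to 66 with any RefSeq start, and genes with SMAD2/3 regions from 23 to 6 within 10 kb. The 50 H3K27ac regions higher in both activin libraries were 54 to 83, and the 39 lower ones 48 to 65, with 1 library left out. A narrower window or a stricter threshold keeps fewer peaks by construction, and a class that needs fewer libraries takes in more; for the other shifts the cause was not tested. With no read counts, a missing peak cannot be told from a weak one.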

Other observations

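SMAD2/3 regions inside these genes were outside the counts where the nearest annotated start was another gene's or, for a Pde4b and a Prkch region, lay beyond the window (176.9 and 157.9 kb). There were 25 such regions in both activin libraries, in 19 genes, of which 10 had no SMAD2/3 region in the counts above. FOXL2 was found at 24 of the 25 and H3K27ac at 20 in both activin libraries, beside 79.9% and 79.6% of SMAD2/3 regions near all protein-coding genes. This set was drawn up after the values were seen.

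The strongest was in Adcy5 and was the 1 region in all 4 libraries. A second Adcy5 site (chr16:35241280-35241751) was in vehicle 1 at 4.02 and in the activin libraries at 8.37 and 7.90. Prkcb, a calcium-dependent protein kinase C gene, held sites at chr7:122331797-122332670 (12.1 in activin 1 and 13.4 in activin 2) and chr7:122322755-122323057 (6.71 and 5.72). Prkcq held 3, the strongest at chr2:11213112-11213491 with 13.7 and 10.7. Both are protein kinase C genes that had no region in the counts. Rgs7 held one at chr1:175460452-175460694 (13.2 and 14.8), and Pde8a one at chr7:81236361-81236832 (12.4 and 8.33). Rgs3 held one at chr4:62649258-62649630 that was also in vehicle 1 (4.37, with 8.39 and 7.81 under activin). Gnaq, Pde4b, Pde4d, Akap9 and Akap13 were among the other genes, with fold values between 3.24 and 7.14 in the activin libraries.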
